A study of Bos taurus with 30 samples.

Results

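Morula-only regions are stretches where bovine morulae had a region of open chromatin and no other control stage studied here had one. A region of a stage was a stretch where the ATAC-seq peaks of at least 2 of its 3 replicates overlapped after merging, and members were chosen by the presence of peaks in these lists. A morula region was taken as morula-only where it shared no base with a region of GV oocytes, 2-, 4- or 8-cell embryos, inner cell masses (ICM) or embryonic stem cells (ESC). Peaks in single libraries of other stages did not exclude a morula region. Of 161497 morula regions, 44199 met this rule, or 27.4%, and 45.4% of these had no peak in any other control library. The 44199 members covered 26.7 Mb of the ARS-UCD1.2 genome.

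ATAC-seq uses a transposase that inserts adapters into DNA left free by nucleosomes, and a peak is a stretch with more insertions than the local background of its library. Open stretches of this kind include promoters and enhancers, where transcription factors bind. The morula is the stage at which blastomeres flatten against each other in compaction and outer cells begin to differ from inner cells. The outer cells go on to form trophectoderm and the inner cells form the ICM, from which ESC are derived. In cattle the embryo's own genome is activated mainly around the 8-cell stage, before the morula.

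The control groups were GV oocytes taken before maturation, in vitro produced embryos at 2-cell (30 to 32 h after insemination), 4-cell (2 days), 8-cell (3 days) and morula (5 days), ICM, and ESC derived from ICM. Transcription blocked embryos (TBE) were 2-, 4- and 8-cell embryos cultured with 50 µg/ml α-amanitin, which blocks RNA polymerase II, from the first day. No TBE of the morula stage were among the samples. Each of the 10 groups had 3 libraries, 30 in all. Within a group, those of oocytes and embryos came from separate collections. They were made from pools of oocytes or embryos, so a morula peak cannot be assigned to inner or outer cells, and open chromatin in few cells cannot be told apart from weak opening in many. Morulae alone were given an extra vortexing step during lysis, which cannot be told apart from the stage. The same holds for other steps. ICM were isolated by immunosurgery and treated with trypsin, and ESC were trypsinized. Libraries of GV oocytes and of 2- and 4-cell embryos had more PCR cycles than those of 8-cell embryos and morulae. ESC were grown on mouse feeder cells, which were removed by plating before lysis.

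Depth was read from a background level, the pileup of tags expected by chance at a position, which is proportional to the tags of a library. It was solved in 28 of 30 libraries. Over 3 replicates it summed to 2.10 for morula, 2.93 for 8-cell embryos, 1.99 for ICM and 1.24 for ESC, against 1.17 for 4-cell embryos and 1.00 for GV oocytes. Morula lists held 142231 to 207459 peaks, 8-cell lists 125253 to 156569, ICM lists 84773 to 116791 and ESC lists 39333 to 142643, and 2-cell lists were the shortest of the control stages, with 1002 to 6440. With so few peaks, 2-cell embryos removed little from the morula set, since 2-cell regions met 0.342% of morula regions while 8-cell regions met 51.5% and ICM regions 42.7%.

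Morula-only regions were short and weak among morula regions. Their median length was 436 bp (quartiles 298 and 810 bp), against 692 bp for all other morula regions. Fold enrichment is the mean over a peak of its pileup relative to local background, and the highest of a region's peaks was taken. Its median in members was 3.80, 3.93 and 3.98 in morula replicates 1, 2 and 3, against 4.65, 4.87 and 4.76 for the others. Members were thus lower in each of the 3 morula libraries. A mean fold enrichment of 6 or more was reached by 1741 members, or 3.94%, and by 22.4% of other morula regions. These values come from the lists that chose the members and are a description.

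**Figure D1:**
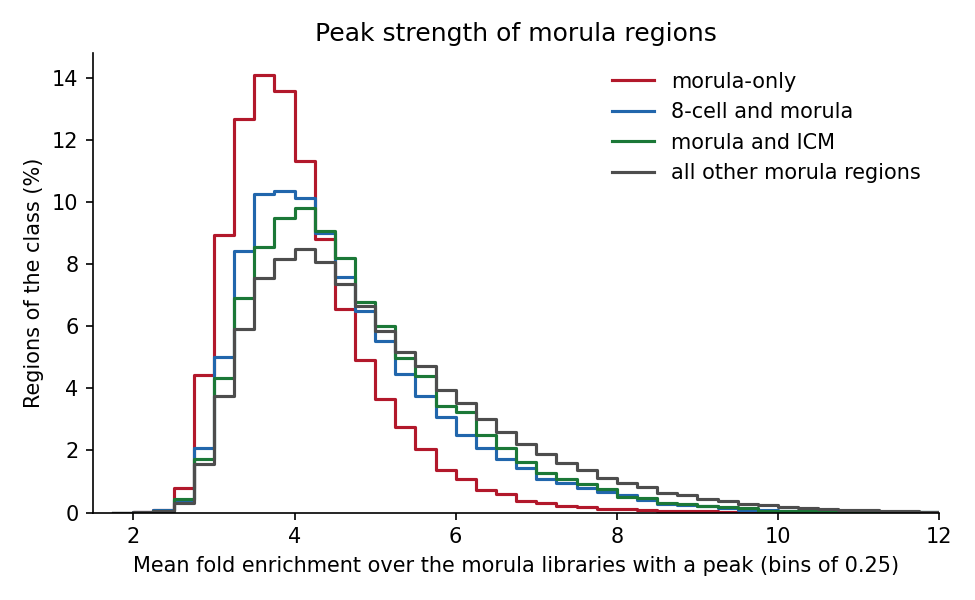
Distribution of the mean fold enrichment (horizontal axis, bins of 0.25) over the morula libraries with a peak, as the percentage of each class of morula regions (vertical axis). Morula-only regions centre at a median of 3.91, below regions shared with 8-cell embryos alone (4.34), regions shared with ICM alone (4.49) and all other morula regions (4.71), a class that includes both of these.

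The nearest classes of morula regions had intermediate values. Regions shared with 8-cell embryos and no other control stage numbered 33968, with a median length of 553 bp and a median mean fold enrichment of 4.34. Regions shared with ICM and no other control stage numbered 18475, with medians of 625 bp and 4.49. Classes also differed in how many replicates held them. All 3 morula libraries had a peak in 46.0% of members, in 70.0% of regions shared with 8-cell embryos, in 73.1% of regions shared with ICM and in 77.8% of all other morula regions.

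The members that lacked a peak in a morula library mostly lacked it in replicate 1. This library had no peak in 16040 members, or 36.3%, while replicate 3 lacked 5319 (12.0%) and replicate 2 lacked 2503 (5.66%). Replicate 1 also had the lowest background level of the morula libraries, 0.452, against 0.927 in replicate 2 and 0.716 in replicate 3. The part of depth in this order was not tested. Among all other morula regions, replicate 1 was likewise the library most often lacking, at 15.1%.

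The rule removed regions of other stages but left peaks found in a single library of another stage. No peak in any of the 18 other control libraries was found at 20067 members (45.4%), whose median fold enrichment in morula was 3.85. A further 16928 members (38.3%) had a peak in 1 of these libraries, 5592 in 2 and 1310 in 3, and 5 members had a peak in 6 libraries. Single peaks came mostly from 8-cell embryos and ICM, the stages whose regions also met most morula regions. A peak in 1 8-cell library and no other was found at 7416 members, in 1 ICM library at 5879, in 1 ESC library at 2495, in 1 GV oocyte library at 655, in 1 4-cell library at 444 and in 1 2-cell library at 39. The same order held for the share of all morula regions that each stage's regions met, at 51.5%, 42.7%, 26.5%, 14.8%, 8.12% and 0.342%. The part of list length was not tested.

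Regions on either side of the limit had similar values. The 7416 members with a lone 8-cell peak had a median fold enrichment in morula of 3.97 and a median length of 430 bp, and the 6038 morula regions just outside, with peaks in 2 8-cell libraries and no other control library, had 4.07 and 435 bp. For ICM the medians were 4.01 in 5879 members inside and 4.18 in 4010 regions outside. For ESC they were 3.86 in 2495 members and 4.01 in 1416 regions outside.

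Whether members recur was asked of libraries that had no part in choosing them. Each replicate of a stage was held out in turn, the regions of that stage were remade from peaks shared by the 2 remaining replicates, members were chosen again, and the percentage with a peak in the held-out library was counted. Held-out morula replicate 1 had a peak in 56.0% of 36493 members, replicate 2 in 89.1% of 23065 and replicate 3 in 79.4% of 25801, where 87.1% of all morula regions had one. The mean was 74.9% ± 17.0 (SD, n = 3). The 3 libraries followed the order of their background levels. The members with a peak numbered 20453, 20562 and 20482, close to the 20337 that all 3 morula libraries held. The 3 shares are therefore not independent and largely restate the replicate patterns given above.

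Other morula regions recurred more often in the same held-out morula libraries. Their shares were 83.7% in replicate 1, 96.9% in replicate 2 and 94.5% in replicate 3, a mean of 91.7% ± 7.01. The difference of 16.8 percentage points had the same direction in 3 of 3 libraries (exact sign-flip test, two-sided, p = 0.25, the smallest that 3 pairs allow). With 1 held-out library left out of the mean, it was 21.4 points without replicate 2 and 11.4 without replicate 1. The gap largely restates that all 3 morula libraries held 46.0% of members and 77.8% of other morula regions. The test therefore gives no separate support.

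Members were met far less often in held-out libraries of other stages. Held-out 8-cell libraries had a peak in 17.6%, 15.1% and 29.4% of members (mean 20.7% ± 7.61), against a background of 51.9% of all morula regions. Held-out ICM libraries had a peak in 15.9%, 14.1% and 21.7% (mean 17.2% ± 3.99), with 43.4% of all morula regions. Both neighbouring stages lay below the lowest morula library, and their own ranges overlapped.

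In ESC the spread between libraries was wide. Held-out ESC replicates 1, 2 and 3 had a peak in 1.10%, 17.5% and 10.2% of members (mean 9.61% ± 8.23), where 26.3% of all morula regions had one. Their background levels were 0.175, 0.656 and 0.404, in the same order as the shares, and the part of depth was not tested. Replicate 1 stood far below the other two.

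Stages before the 8-cell stage held few members. GV oocyte libraries had a peak in 2.22% to 2.92% of them (mean 2.63% ± 0.369), with 15.7% of all morula regions. The 4-cell libraries had a peak in 0.664% to 2.38% (mean 1.42% ± 0.873), with 10.1% of all. The 2-cell libraries had a peak in 0.0249% to 0.274% (mean 0.111% ± 0.141), with 1.05% of all. The low 2-cell values stand beside lists of 1002 to 6440 peaks.

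The held-out shares of morula exceeded those of each of the 6 other stages by 54.1 (8-cell) to 74.7 (2-cell) percentage points, with no overlap between libraries. Each exact two-sided permutation test gave p = 0.1, the smallest that 3 libraries against 3 allow, and p = 0.1 after Benjamini-Hochberg adjustment over 6. The difference was 57.6 points to ICM and 65.3 to ESC. Members were required in both remaining morula libraries and could not be in both remaining libraries of the held-out stage. The direction therefore follows from the choice wherever replicates resemble each other. The size was measured under the same choice and with lists of unequal length, so it is a description. The tests give no separate support.

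**Figure D2:**
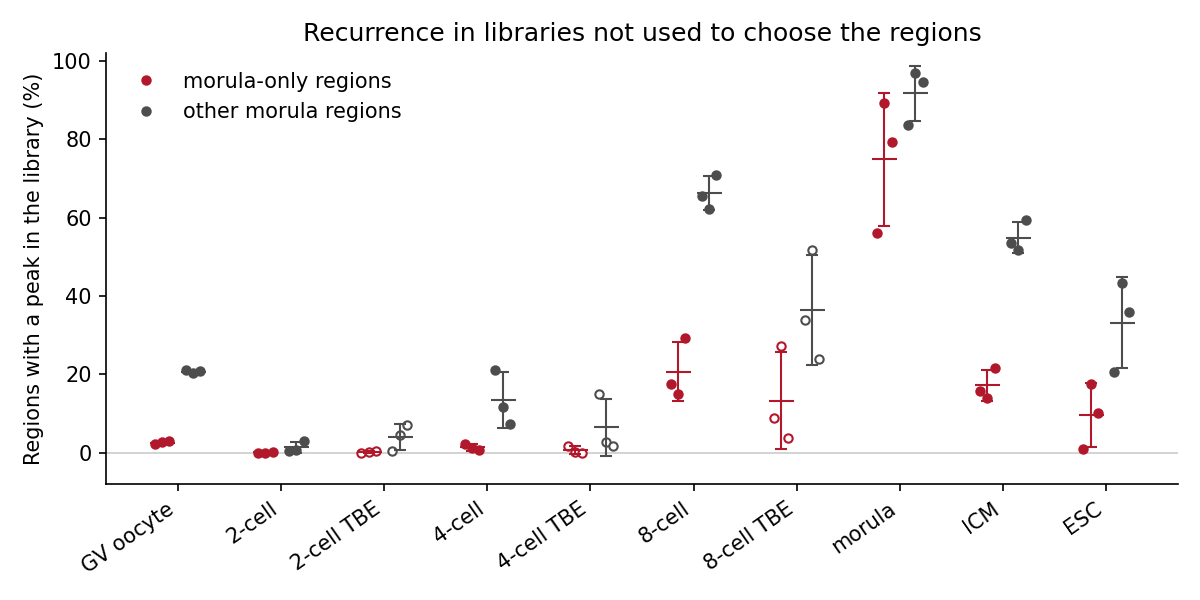
Percentage of morula-only (red) and other morula regions (grey) with a peak in each library that had no part in choosing them (vertical axis), by stage. Points are libraries, filled for held-out control and open for TBE, and bars give the mean and SD of 3 libraries. Morula-only regions reach 56.0% to 89.1% in morula and at most 29.4% elsewhere, a direction that follows from how they were chosen.

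Recurrence in morula rose with the strength of the peak. Among members with a mean fold enrichment of 6 or more in the morula libraries that chose them, the held-out morula library had a peak in 93.0%, 99.6% and 99.0% (mean 97.2% ± 3.64), against a mean of 99.2% ± 1.16 for other morula regions in that range. Among members under 3 the values were 29.2%, 70.0% and 48.2% (mean 49.1% ± 20.4), against 67.7% ± 15.9. Shares near their upper limit leave little room for a gap, and counted as regions lacking a peak, members stood at 50.9% and other regions at 32.3% under 3, and at 2.84% and 0.760% at 6 or more.

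At the other stages members stayed below other morula regions at each strength. This direction follows from the choice, since members could not overlap a region of these stages. Other morula regions had to overlap a region of some other stage. In held-out 8-cell libraries, members under a fold enrichment of 3 had a peak in 16.2% ± 4.56 and members of 6 or more in 29.2% ± 12.2, while other morula regions had one in 48.9% and 80.8%. In held-out ICM libraries the mean rose from 12.7% ± 4.52 to 30.2% ± 6.06 in members and from 31.4% to 75.6% in other regions. In held-out ESC libraries it was 8.95% ± 7.70 and 10.8% ± 9.12 in members. On average, 97.2% of the strongest members had a peak in a held-out morula library. In held-out 8-cell, ICM and ESC libraries the averages were 30.2% or lower. Single libraries there reached 43.3% (8-cell replicate 3) and 36.7% (ICM replicate 1). The direction of this contrast between stages also follows from the choice.

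**Figure D3:**
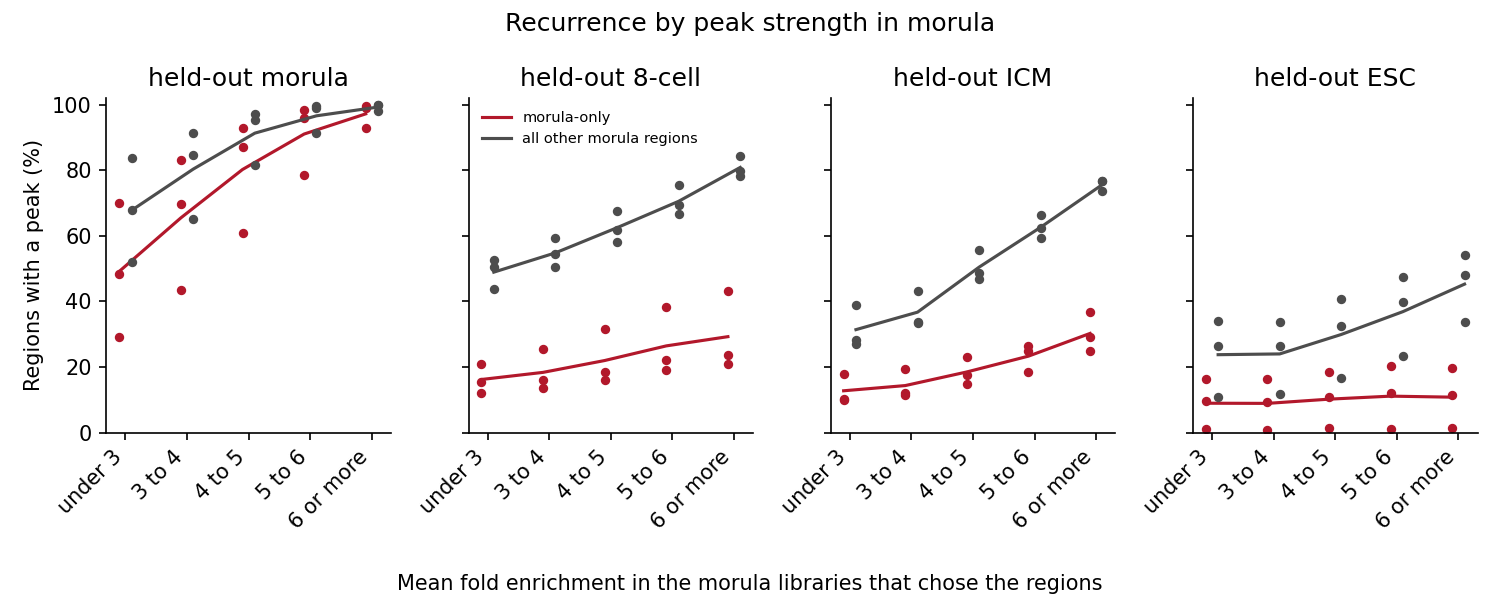
Percentage of regions with a peak in the held-out library (vertical axis) by mean fold enrichment in the morula libraries that chose them (horizontal axis), in morula, 8-cell embryos, ICM and ESC. Points are the 3 held-out libraries and lines their means. The mean of morula-only regions (red) lies below that of other morula regions (grey) in each bin, and in morula both come close to the upper limit, at 97.2% and 99.2% for a fold enrichment of 6 or more. Outside morula the lower position of morula-only regions follows from how they were chosen.

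TBE took no part in the rule, so they show how far members were open in embryos whose transcription was blocked. The 8-cell TBE replicates 1, 2 and 3 had a peak in 9.0%, 27.2% and 3.68% of the members chosen without 1 8-cell control library (mean 13.3% ± 12.3), where 29.2% of all morula regions had one. The held-out 8-cell control libraries had 17.6%, 15.1% and 29.4%, with 51.9% of all morula regions. The ranges overlapped, and the difference of -7.42 percentage points did not pass (exact two-sided permutation test, p = 0.4, adjusted p = 0.5 over 3 stages). Members could not overlap a region shared by the 2 remaining control libraries of the stage, and no such condition was set on TBE. This lowers the control share wherever control replicates resemble each other. The difference therefore does not measure α-amanitin alone, here and in the TBE comparisons with held-out controls below.

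The 8-cell TBE libraries differed widely in depth. Their background levels were 1.24, 3.82 and 0.347, in the order of the shares, and replicate 2 had the longest list of all, with 247513 peaks. Without 8-cell TBE replicate 2 the difference was -14.4 points (p = 0.1 in an exact permutation test, the smallest possible). Without the shares of replicate 3 of both groups the difference was +1.71 points, though that control library still helped choose members. With peaks limited to a fold enrichment of 3 or more it was -15.2 points and with peaks of −log10 q of at least 3 it was -12.6 points (p = 0.1 for each, exact permutation test). With equal numbers of top peaks, 39333 a list, TBE had a peak in 4.22% ± 0.401 and held-out controls in 15.2% ± 2.97 of members chosen from those lists, a difference of -11.0 points (exact permutation test, p = 0.1). Set against the length that peaks covered, members with a peak were nearly equal in the 3 TBE libraries, at 59.6, 60.3 and 59.3 per Mb, while other morula regions fell from 1102 per Mb in replicate 3 to 306 in replicate 2.

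Earlier TBE held almost no members. At the 4-cell stage TBE had a peak in 1.85%, 0.0956% and 0.0805% of members, with 4.89% of all morula regions, and at the 2-cell stage in 0.00679%, 0.335% and 0.425%, with 3.03% of all. The differences from held-out controls were -0.743 points at 4-cell (exact permutation test, p = 0.5, adjusted p = 0.5) and 0.145 points at 2-cell (p = 0.4, adjusted p = 0.5). Both groups overlapped at both stages. Whether TBE minus control differs between stages could not be decided with 3 libraries a group (exact permutation of labels within stages, p = 0.28 to 0.43). Held-out controls had means of only 1.42% at 4-cell and 0.111% at 2-cell. A drop in points as large as that at 8-cell was therefore not possible at these stages.

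Only part of the members found in 8-cell TBE libraries were found there in 2 replicates. Regions of 8-cell TBE met 3946 members, or 8.93%, while those of 4-cell TBE met 7 and those of 2-cell TBE met 6. Of all morula regions, members included, these TBE regions met 26.997%, 2.225% and 1.886% in the same order. The 3946 members had a median length of 511 bp and a median fold enrichment in morula of 3.81, beside 430 bp and 3.92 in the 40253 other members. All 3 morula libraries had a peak in 41.2% of the former and in 46.5% of the latter.

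Regions shared with ICM alone, which also lack an 8-cell region, give a measure of the same kind. The 8-cell TBE replicates 1, 2 and 3 had a peak in 10.6%, 31.4% and 4.04% of them, and in 8.42%, 26.5% and 3.29% of all 44199 members. The difference of 2.63 percentage points had the same sign in 3 of 3 libraries (exact sign-flip test, two-sided, p = 0.25, the smallest that 3 libraries allow). Regions shared with ICM alone were also longer and stronger, with medians of 625 bp and 4.49 against 436 bp and 3.91. The part of length and strength was not tested. Among all other morula regions the shares were higher, at 32.8%, 50.6% and 23.0%.

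A stricter set was made of members that every morula library held and that were absent from the 27 other libraries, TBE included. It numbered 6520 members, or 14.8%, with a median fold enrichment of 4.17 and a median length of 467 bp. The 10 strongest of them by mean fold enrichment lay on 8 chromosomes. They are named by position, as genes were not analysed here.

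The strongest was chr1:61974231-61974588, of 358 bp, with a fold enrichment of 7.83, 12.6 and 10.9 in morula replicates 1, 2 and 3 (mean 10.5 ± 2.44, SD, n = 3). It lay 2.18 kb from the nearest region of another stage. The second, chr22:21478614-21478963, had 8.39, 11.3 and 10.2 (mean 9.97 ± 1.47). The third, chr13:31326485-31326982, had 7.82, 11.2 and 10.2 (mean 9.72 ± 1.73). In these 3 regions replicate 2 was the highest and replicate 1 the lowest.

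At chr10:55289355-55289723 the values were 9.25, 11.6 and 8.26 (mean 9.71 ± 1.73). At chr5:77270713-77271117 they were 6.96, 12.5 and 9.54 (mean 9.66 ± 2.76), the widest spread of the 10. At chr6:112441593-112442033 they were 8.07, 11.0 and 9.74 (mean 9.60 ± 1.47). Neighbours in this order differed by less than their SD.

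The next were chr5:91932639-91932953 (mean 9.35 ± 1.87), chr11:22946683-22947072 (mean 9.21 ± 1.79) and chr5:99290917-99291222 (mean 9.10 ± 1.38), each highest in replicate 2. Chromosome 5 thus held 3 of the 10. The region chr21:36201072-36202151 differed in shape and order, with a length of 1080 bp and values of 10.8, 8.95 and 7.63, highest in replicate 1. The other 9 were 306 to 498 bp long. Distances from the 10 to the nearest region of another stage were 2.18 to 21.7 kb.

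**Figure D4:**
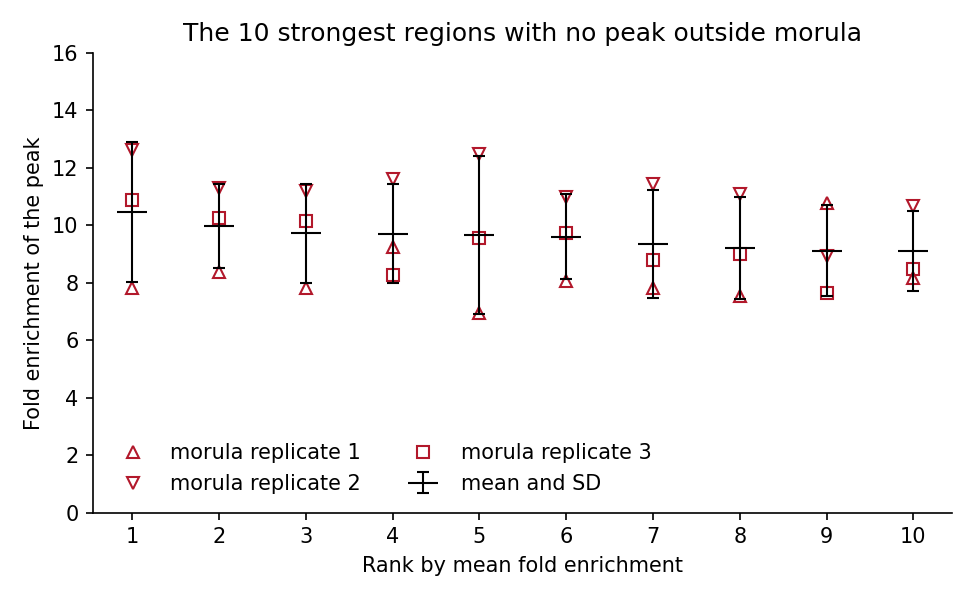
Fold enrichment over local background (vertical axis) in the 3 morula libraries for the 10 strongest morula-only regions with no peak in the 27 other libraries, by rank of the mean (horizontal axis). Symbols are libraries and bars the mean and SD, and the values lie between 6.96 and 12.6.

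The longest members did not have the highest fold enrichment, which is a mean over the peak. The longest, chr13:57106558-57110532, was 3975 bp with fold enrichments of 4.57, 5.60 and 4.82 (mean 5.00 ± 0.539), and had a peak in 3 other control libraries and 1 TBE library. The next, chr25:24595296-24599124, was 3829 bp with a mean of 3.60 ± 0.527 and a peak in 1 other control library. The members chr4:24992403-24996094 (3692 bp, mean 3.24 ± 0.549) and chr8:110154796-110158423 (3628 bp, mean 3.28 ± 0.224) each had a peak in 2 other control libraries. The fifth, chr11:22766756-22770139, was 3384 bp (mean 4.20 ± 0.825) with no peak in other control libraries and 1 in TBE. All 5 were in each of the 3 morula libraries.

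Members were spread over all chromosomes. On the 29 autosomes they made up 23.7% (chromosome 18) to 31.0% (chromosome 22) of morula regions, with a median of 27.2%. On the X chromosome 1751 of 5348 morula regions were members, or 32.7%, above every autosome. This stayed so with each replicate left out of all stages, at 38.2%, 33.6% and 40.3% on X against highest autosomal values of 37.5%, 33.1% and 39.2%. Median fold enrichment of members was 3.99 on X and 3.85 to 3.99 on autosomes.

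By the rule, a higher share on X means that a smaller part of its morula regions overlapped any other stage. Taken stage by stage, the overlap was lower on X for most stages. The 8-cell regions met 46.0% of morula regions on X and 51.6% on autosomes, ICM regions 37.0% and 42.8%, 4-cell regions 5.37% and 8.10%, ESC regions 24.8% and 26.4%, and GV oocyte regions 13.8% and 14.8%. For 2-cell regions the values were 0.337% and 0.257%. Unplaced scaffolds held 153 members among 751 morula regions, or 20.4%.

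**Figure D5:**
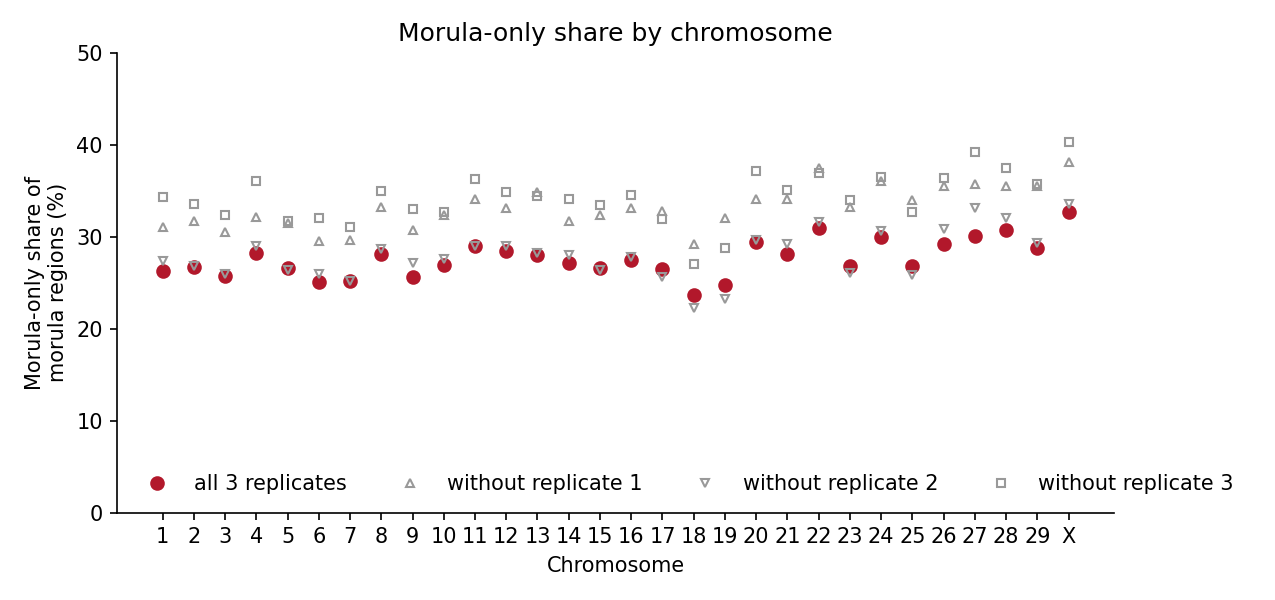
Morula-only share of the morula regions of each chromosome (vertical axis, percent) on the 29 autosomes and X (horizontal axis). Red points use all 3 replicates and open symbols leave 1 replicate out of every stage. X has 32.7%, above the autosomal range of 23.7% to 31.0%.

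Members lay among other open regions. The median distance from a member to the nearest other morula region was 4.87 kb, beside 5.08 kb for other morula regions. The nearest region of any other stage lay at a median of 4.23 kb, and 8.68% of members had one within 1 kb. By stage the median distance was 8.37 kb to an 8-cell region, 10.1 kb to ICM, 10.8 kb to ESC, 30.4 kb to GV oocytes, 73.1 kb to 4-cell and 2560 kb to 2-cell embryos. This order follows the number of regions of each stage, from 120364 at 8-cell to 677 at 2-cell.

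In 2640 windows of 1 Mb, the median number of members was 16 (quartiles 11 and 22), and 5 windows had none. Windows with many members also had many other morula regions (Pearson's r = 0.516 across windows, which share libraries and depth). The fullest windows were chr8:105000001-106000000 and chrX:58000001-59000000, each with 41 members among 88 and 84 morula regions. They were followed by chr4:106000001-107000000 with 39 of 118, and by chr14:2000001-3000000 with 38 of 83 and chr16:2000001-3000000 with 38 of 112. The member share in these 5 windows was 33.1% to 48.8%, against quartiles of 21.8% and 33.3% over windows with at least 20 morula regions.

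Most members were followed by a morula region of another class. The next region was a member in 31.2% of cases after a member and in 25.9% after another region, beside 27.4% of all morula regions. Runs of 3 or more members in a row held 10676 members (24.2%), and 21303 (48.2%) stood alone between other regions. The longest run had 11 members over 403 kb, chr17:8727286-9130132.

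The set depended on the length of the peak lists. With lists of 8-cell embryos, morula, ICM and ESC cut to their 39333 strongest peaks each, 7644 morula regions met the rule, or 20.7% of 36869. Of these, 1951 (25.5%) overlapped a morula-only region of the whole lists, and 4.41% of the 44199 members overlapped one of them.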

How the data were processed

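ATAC-seq peak lists of 30 bovine libraries were used, 3 for each of 10 groups. The authors mapped trimmed reads to the ARS-UCD1.2 assembly, filtered out PCR duplicates and mitochondrial or poorly mapped reads, and ran MACS2 for broad peaks. The submitters' processing notes name cutadapt 0.4.0, BWA 0.7.17, SAMtools 1.7 and MACS2 2.1.1. Each deposited list gives per peak the fold enrichment (a ratio of pileup to local background in the same library), the −log10 p-value and q-value as means over the peak, and a score, which was not used here. The smallest deposited mean −log10 q was 1.00, which is less strict than the q-value cutoff that the methods state, and the settings used for these single-replicate lists are not given in the sources used, so some peaks may be weaker than that cutoff. The methods describe peak calling on merged reads of equal depth, but the lists belong to single replicates and carry differences in depth.

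Peaks were merged on 1 bp overlap with Python 3.11.15, numpy 2.4.6 and pandas 2.3.3, and tested by exact permutation. Interval functions were tested on simulated data (0 mismatches in 200 trials), as were background levels (4 of 4 recovered). Multiples of 0.02 come from MACS2's local window and were left out, so a library level there could not be solved (2 of 2 such simulated levels were left unsolved). Levels were solved from 3 or more peaks of up to 260 bp (tolerance 0.0001 on the −log10 p scale). Tests were made over libraries, since regions of one genome are not replicates of a condition. The number of reads per library is not given in the sources used.

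The members, classes and tests were chosen with earlier results of these data known. Named regions were the 10 strongest of the stricter set, the 5 longest members and the 5 windows of 1 Mb with most members. Sequence, motifs and genes were not analysed here.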

Additional observations from a re-analysis of the deposited data

How the results depend on the processing

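The number of morula-only regions was 36697 to 59107 under 6 alternatives (stricter −log10 q or fold enrichment, 50% of the length covered, autosomes, regions from any or all 3 replicates) and 32482 to 47685 with 1 replicate left out. It was 7644 with equal numbers of top peaks and 20067 where no single library of another control stage could have a peak, the latter by its stricter construction. Morula exceeded each other stage in held-out libraries under all alternatives run, by 43.8 to 84.1 percentage points, and by 44.2 to 84.1 with 1 replicate left out. The direction here follows from the choice of members. In this comparison and those that follow, a left-out replicate was dropped from the means only. Control replicates so dropped still helped choose the members. Other morula regions minus members in held-out morula libraries ranged from 11.4 to 24.0 points. For 8-cell TBE against control the difference ranged from -17.2 to 1.71 points with 1 replicate left out. It reversed to 1.71 without replicate 3, and the cause was not tested. Leaving out single 8-cell TBE libraries was chosen after seeing the data and gave -14.4 to -2.62 points. At 4-cell the difference was -1.48 to -0.271 and at 2-cell 0.0299 to 0.323 points. With 2 libraries a group, p could not go below 0.333.

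Neither the unpaired exact permutation test (smallest p = 0.1) nor the replicate block with its exact sign-flip test (smallest p = 0.25) could pass 0.05 with 3 libraries a group, so there was no call to change. Paired by number, the differences stayed 54.1 to 74.7 points for morula against other stages (exact sign-flip test, p = 0.25), -7.42 at 8-cell (p = 0.75), -0.743 at 4-cell (p = 0.25) and 0.145 at 2-cell (p = 0.5). The study split embryos of its collections into control and α-amanitin groups that were cultured together. Replicate numbers were not stated to mark a collection. Same-numbered TBE and control libraries correlated at -0.126 to 0.121 and differently numbered ones at -0.152 to 0.191, so the numbers were not taken as pairs. Alternatives for sequence were not run. Absence of a peak does not show closed chromatin, and background levels, where solved, ranged from 0.123 (2-cell replicate 2, from 3 peaks) to 3.82 (8-cell TBE replicate 2).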
